A study of Homo sapiens with 6 samples.

Results

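The miR-183 cluster, which also holds miR-96 and miR-182, is a group of 3 miRNA precursors that are transcribed together from chromosome 7. Its members here are 4 mature arms, hsa-miR-183-5p, hsa-miR-183-3p, hsa-miR-96-5p and hsa-miR-182-5p (hsa, the human prefix, is left out from here on), chosen by name from the 1582 miRNAs counted in this series. All 4 were found in the table. The other strands of the miR-96 and miR-182 hairpins, miR-96-3p and miR-182-3p, are not members and are given beside them as the remaining arms of the same precursors.

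Small RNA was sequenced from MDA-MB-231 cells, a human TNBC line that lacks ER, PR and HER2 amplification. One group of 3 libraries came from cells overexpressing RARαS77A, a retinoic acid receptor α whose serine 77 is replaced by alanine and cannot be phosphorylated. The submitters' design text describes its delivery as lentiviral, whereas their sample labels say transfected. The other 3 libraries came from non-transfected cells without an empty vector, so the effect of the mutant receptor and that of its delivery cannot be told apart. No library came from cells overexpressing wild-type RARα, so the substitution and the raised receptor level cannot be told apart either. Neither group is described as a single clone. No source used here says whether the replicates were separate cultures, and the p-values measure only the spread between these libraries.

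The 3 hairpins form a polycistron, meaning that a single long transcript is cut by DROSHA into separate precursors, and DICER then releases a 5p and a 3p strand from each. Usually 1 strand of a hairpin is kept in Argonaute and the other is degraded, so the arms of a hairpin differ in level. The cluster is best known from sensory organs such as the retina and the inner ear, where changes in the seed of miR-96 cause hearing loss, and it is often high in epithelial tumors. The tumor suppressor FOXO1, a forkhead transcription factor that slows the cell cycle, is a known target of miR-182 and miR-96, and the DNA repair protein BRCA1 is a known target of miR-182.

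The mature sequences are shown with the seed, bases 2 to 8 from the 5′ end, in capitals, because the seed largely determines which mRNAs an arm can pair with. They are from RefSeq on GRCh38.p14.
hsa-miR-183-5p: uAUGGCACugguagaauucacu
hsa-miR-96-5p: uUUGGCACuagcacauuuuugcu
hsa-miR-182-5p: uUUGGCAAugguagaacucacacu
hsa-miR-183-3p: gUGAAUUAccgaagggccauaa
hsa-miR-182-3p: uGGUUCUAgacuugccaacua
hsa-miR-1271-5p: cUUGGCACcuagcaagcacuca
The seeds of miR-183-5p and miR-96-5p were identical at 6 of 7 positions, as were those of miR-96-5p and miR-182-5p, while miR-183-5p and miR-182-5p had 5 identical positions. No pair of members shared a whole seed. Among the 1342 miRNAs of the table that matched a mature sequence, only miR-1271-5p, encoded on chromosome 5, had the same seed as a member, namely that of miR-96-5p. The table held no other miRNA whose counts came within 5% of a member's in every library. Whether reads were shared with other entries was not tested.

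The 3 hairpins lie on the minus strand of chromosome 7 (GRCh38, GENCODE 29). MIR183 is at chr7:129774905-129775014, MIR96 at chr7:129774692-129774769 and MIR182 at chr7:129770383-129770492. No annotated gene overlaps any of them, so they are intergenic. Only 135 bases separate MIR183 from MIR96, whereas 4199 bases separate MIR96 from MIR182. The nearest protein-coding genes are NRF1, 13300 bases beyond MIR182, and UBE2H, 55717 bases beyond MIR183. The hairpins of MIR182 and MIR96, with both mature arms in capitals, show the strands whose counts are compared here.
MIR182: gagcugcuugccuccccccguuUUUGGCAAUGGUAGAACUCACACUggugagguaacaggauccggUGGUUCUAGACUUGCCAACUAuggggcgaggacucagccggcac
MIR96: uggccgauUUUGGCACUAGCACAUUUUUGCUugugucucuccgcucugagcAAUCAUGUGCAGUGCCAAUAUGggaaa

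Across the series, the libraries held between 9019266 and 11338580 counts, and the 5 most abundant miRNAs took between 68.4% and 77.1% of them. On a list drawn up for mesenchymal and basal breast lines, miR-21-5p, miR-100-5p, miR-221-3p and miR-222-3p together had between 607184 and 706284 TPM. A list of 6 epithelial miRNAs of the miR-200 and miR-205 families had 89.7 to 128 TPM. Most of the former sum was miR-21-5p (446868 to 515306 TPM), so it says little about the other 3. miR-100-5p had 109751 to 178018 TPM, miR-221-3p 5472 to 12703 TPM and miR-222-3p 7488 to 10431 TPM. The libraries also differed in 8 miRNAs typical of pluripotent stem cells. Of these 8, 7 were at 0 in each of control replicates 1 and 2, where a count of 0 allows up to 3 counts, or 0.278 and 0.265 TPM. All 8 were detected in control replicate 3, at a summed 422 TPM, and in the RARαS77A libraries, at 278 to 288 TPM. Control replicate 1 also stood apart in 4 muscle miRNAs (91.5 TPM against 2.65 to 5.10 in the others), and control replicate 2 in miR-375-3p, typical of endocrine cells (870 counts against 19 to 54). The part of such RNA in the results was not tested. In bulk RNA, fewer cells of a type and less RNA per cell cannot be told apart.

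All 3 guide strands of the cluster, miR-182-5p, miR-183-5p and miR-96-5p, were well expressed and kept the same order of level in each library. The table gives each as counts and as TPM, which here is the count scaled to a common library total, without a length term. In control cells miR-182-5p had 740, 738 and 808 TPM, miR-183-5p had 460, 512 and 529 TPM, and miR-96-5p had 371, 370 and 390 TPM. The ranges of the 3 arms did not overlap. In RARαS77A cells miR-182-5p had 618, 686 and 684 TPM, miR-183-5p had 436, 540 and 528 TPM, and miR-96-5p had 420, 409 and 368 TPM. Here too the ranges were separate, although the lowest miR-183-5p library and the highest miR-96-5p library were close. By count, these arms ranked between 56 and 89 among all miRNAs of a library. Reads of different miRNAs are captured with unequal efficiency in adapter ligation, so the order describes reads and not molecules.

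Whether the guide strands were called higher in RARαS77A cells depended on how the libraries were scaled. As a share of all counts, miR-183-5p and miR-96-5p overlapped between the groups and miR-182-5p was lower in each RARαS77A library. miR-183-5p had 500.3 ± 35.8 TPM in control and 501 ± 57.0 in RARαS77A libraries (mean ± SD of 3), and the groups overlapped. miR-96-5p had 377 ± 11.1 and 399 ± 27.5 TPM, also with overlap. miR-182-5p, the most abundant arm, had 762 ± 39.8 TPM in control and 663 ± 38.6 in RARαS77A cells, and here all RARαS77A libraries were below all controls (two-sided exact permutation test, p = 0.1, the smallest that 3 against 3 allow). On this scale 48.8% of the 506 tested miRNAs were separated downward in the same way and 13.4% upward, so the separation of miR-182-5p was a common one. Summed over the 4 members, controls had 1641 ± 78.7 TPM and RARαS77A libraries 1564 ± 81.8, with overlap.

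TMM normalization, which assumes that most miRNAs keep their level and rescales the libraries accordingly, gave another picture. Its factors were 1.15 to 1.30 for controls and 0.811 to 0.830 for RARαS77A libraries. On this scale miR-183-5p had 399, 395 and 436 CPM in controls and 537, 660 and 637 in RARαS77A libraries. miR-96-5p had 322, 285 and 321 CPM in controls and 518, 500.3 and 443 in RARαS77A libraries. miR-182-5p had 641, 569 and 666 CPM in controls and 762, 839 and 824 in RARαS77A libraries. In each of the 3 arms every RARαS77A library lay above every control, control replicate 3 included (exact permutation test, two-sided, p = 0.1 for each, the smallest possible). Such separation upward was seen in 31.0% of the 506 tested miRNAs.

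In edgeR's quasi-likelihood test on the TMM-scaled counts, 3 of the 4 members were called higher in RARαS77A cells at a Benjamini-Hochberg adjusted p of 0.05, against a background of 23.3% of the 506 miRNAs tested (44.5% called in either direction). No member was called lower, by edgeR, by DESeq2 or at an unadjusted p under 0.05 in either. The rise was 1.57-fold for miR-96-5p (log2 fold change 0.65, SE 0.10, adjusted p = 0.00172, edgeR). miR-183-5p rose 1.49-fold (log2 fold change 0.58, SE 0.10, adjusted p = 0.00358, edgeR) and miR-182-5p 1.29-fold (log2 fold change 0.37, SE 0.09, adjusted p = 0.0136, edgeR). The median log2 fold change was 0.47 over the 4 members and 0.06 over all tested miRNAs.

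Scaled to total counts in the same test, none of the 3 kept its call. The log2 fold change was 0.08 for miR-96-5p (adjusted p = 0.517, edgeR), 0.00 for miR-183-5p (adjusted p = 0.983, edgeR) and -0.20 for miR-182-5p (adjusted p = 0.0922, edgeR). With this scaling 10.1% of the tested miRNAs were called higher and 42.1% lower, compared with 23.3% and 21.1% under TMM, and 0 members had an unadjusted p under 0.05, as with limma on the deposited TPM. The change of scaling moved the median of all tested miRNAs by -0.57, from 0.06 to -0.51. A change of scaling moves every log2 fold change by about the same amount. The members therefore had to keep their place relative to that median. miR-96-5p stood 0.59 above it under either scaling, miR-183-5p 0.51 and miR-182-5p 0.31. The log2 fold change of miR-96-5p exceeded those of 74.7% of all tested miRNAs under TMM and 74.5% under total counts, that of miR-183-5p 72.5% and that of miR-182-5p 64.6% under both.

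**Figure D1:**
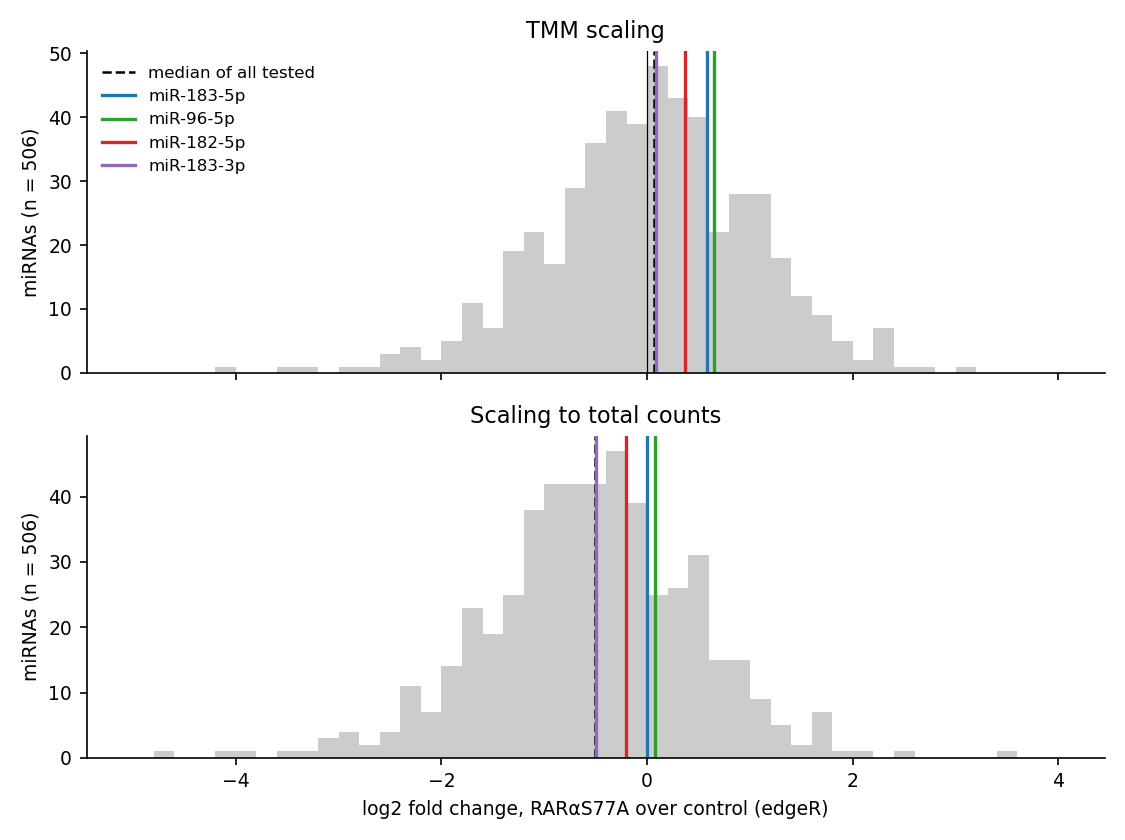
Histograms of the log2 fold change (RARαS77A over control, edgeR) of the 506 tested miRNAs under TMM (top) and under scaling to total counts (bottom), with the median as a dashed line and the 4 members as coloured lines. The whole distribution shifts by -0.57 between the panels and the members shift with it, so that miR-183-5p moves from 0.58 to 0.00 while staying above the median.

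Control replicate 3 shared the stem cell miRNAs with the RARαS77A libraries. With a term in the fit that separates control replicates 1 and 2 from the other libraries, miR-96-5p kept its call (log2 fold change 0.60, SE 0.17, adjusted p = 0.0307, edgeR). miR-183-5p (0.49, adjusted p = 0.0625) and miR-182-5p (0.28, adjusted p = 0.202) did not pass the limit in that fit, where the group difference rests on 1 control library. Without control replicate 3 the log2 fold changes were 0.57 for miR-183-5p, 0.63 for miR-96-5p and 0.36 for miR-182-5p, and all 3 kept their call (adjusted p = 0.00254, 0.00274 and 0.0171, edgeR). Control replicate 3 had the highest summed TPM of the 4 members, 1728, against 1573 and 1623 in the other controls.

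The passenger strand miR-183-3p was too rare for a firm statement. It had 17, 34 and 8 counts in controls and 14, 13 and 12 in RARαS77A libraries. The RARαS77A libraries lay within the range of the controls, whose own spread covered a severalfold range. The log2 fold change was 0.08 (SE 0.44, adjusted p = 0.880, edgeR), and its sign turned when control replicate 1, control replicate 3 or RARαS77A replicate 1 was left out. Without control replicate 2, the library with most counts of it, the value was 0.60 (adjusted p = 0.321, edgeR).

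Ratios between members in the same library do not depend on the scaling and show whether the arms moved by equal amounts. The counts of miR-96-5p relative to miR-182-5p were 0.502, 0.501 and 0.483 in controls and 0.679, 0.597 and 0.538 in RARαS77A libraries. All RARαS77A ratios were above all control ratios. The mean log2 ratio was 0.28 higher in RARαS77A cells (SE 0.10), or 1.22-fold. The ratio of miR-183-5p to miR-182-5p was 0.622, 0.694 and 0.654 in controls and 0.705, 0.787 and 0.772 in RARαS77A libraries, again without overlap, with a mean log2 ratio 0.20 higher (SE 0.07), or 1.15-fold. Both differences reached p = 0.1 in the two-sided exact permutation test, the smallest that 3 against 3 allow, and 0.3 after Benjamini-Hochberg adjustment over the 6 pairs of members. With each library left out in turn they stayed positive, at 0.19 to 0.36 and 0.16 to 0.25 on the log2 scale. The share of other miRNA pairs whose ratios separate in this way was not counted. Of the 506 single miRNAs tested, 31.0% were separated upward and 27.1% downward under TMM.

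For the adjacent hairpins MIR183 and MIR96 the ratio of the guide strands was not separated between the groups. miR-183-5p had 1.24, 1.38 and 1.36 times the counts of miR-96-5p in controls and 1.04, 1.32 and 1.44 times in RARαS77A libraries. The log2 difference of -0.08 (SE 0.15) had an exact permutation p of 0.8 (adjusted p = 0.8). RARαS77A replicate 1 stood low in this ratio, and without it the difference was 0.06. The 3 pairs with miR-183-3p overlapped as well, with log2 differences between -0.39 and 0.31 and SEs of 0.51 to 0.54.

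**Figure D2:**
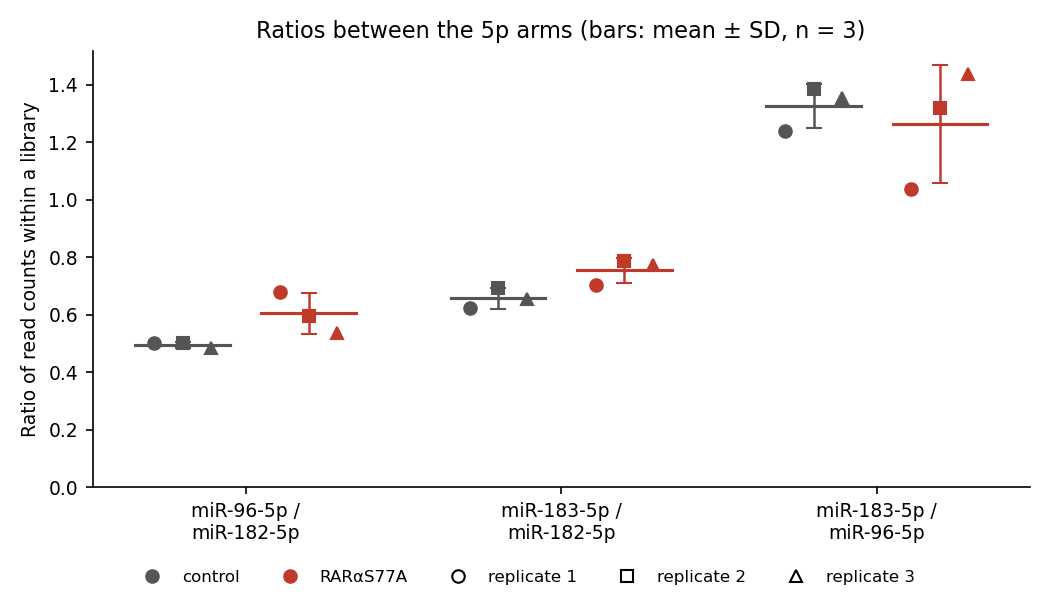
Ratio of read counts between the guide strands within each library (vertical axis from 0), with controls in grey, RARαS77A in red and bars for the mean ± SD (n = 3). The ratios of miR-96-5p and of miR-183-5p to miR-182-5p lie higher in all RARαS77A libraries, while the ratio of miR-183-5p to miR-96-5p overlaps between the groups.

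In the make-up of the cluster this appeared as a smaller part for miR-182-5p. Of the reads of the 4 members it supplied 46.4% ± 0.840 in controls and 42.4% ± 0.781 in RARαS77A libraries (mean ± SD of 3). The lowest control library had 45.5% (95% Wilson interval 44.8 to 46.2) and the highest RARαS77A library 43.3% (42.5 to 44.0), so the libraries were separated by more than counting error, the only error these intervals cover. miR-183-5p supplied 30.5% ± 1.16 and 32.0% ± 2.12, and miR-96-5p 23.0% ± 0.546 and 25.6% ± 2.64, respectively. For both of these arms the groups overlapped, and the exact permutation test gave p = 0.3 and 0.2. miR-182-5p had p = 0.1, and how often such shares separate in other clusters was not examined.

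miR-182-3p, the passenger strand of MIR182, had 22, 32 and 21 counts in controls and 2, 8 and 7 in RARαS77A libraries, without overlap. Of the tested miRNAs, 48.8% were separated downward on the TPM scale and 27.1% under TMM. miR-182-3p passed the filter on low counts through the control libraries alone, so it had to differ between the groups. Its values are a description with no test. Its log2 fold change was -1.49 under TMM (SE 0.43) and -2.06 under total counts.

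Relative to its own guide strand, miR-182-3p made up 0.314% ± 0.0581 of the reads of the MIR182 arms in controls and 0.0830% ± 0.0433 in RARαS77A libraries (mean ± SD of 3). Between them, the lowest control library stood at 0.274% (95% Wilson interval 0.181 to 0.415) and the highest RARαS77A library at 0.113% (0.0575 to 0.224), whose intervals overlap. The 3p share of MIR183 was 0.363% ± 0.208 in control and 0.264% ± 0.0579 in RARαS77A cells, and that of MIR96 was 0.122% ± 0.0887 and 0.0946% ± 0.0604, both with overlap. miR-96-3p had 1 to 7 counts per library and was not tested.

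Several miRNAs of other loci had a profile over the 6 libraries close to that of the guide strands. Likeness was measured as the root mean square difference of log2 TMM-CPM, each miRNA centred on its own mean, over those with 50 or more counts on average, beside the members. From miR-183-5p, the member miR-182-5p was the 10th closest of 313 miRNAs (difference 0.12), miR-96-5p the 22nd (0.15) and miR-183-3p the 176th (0.46). From miR-182-5p, miR-183-5p was the 12th and miR-96-5p the 32nd. The guide strands were therefore closer to some miRNAs from other loci than to each other. The 5 closest to the mean profile of miR-183-5p and miR-182-5p were miR-224-5p (difference 0.03), miR-26a-5p (0.06), miR-200b-3p (0.07), miR-30d-5p (0.08) and miR-378a-3p (0.08), of 310 compared. The measure includes the difference between the groups, so their log2 fold changes had to lie near those of miR-183-5p and miR-182-5p. They lay between 0.46 and 0.56 under TMM.

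The other miRNAs of the same chromosomal region included 2 that were called lower under TMM, as were 21.1% of all tested miRNAs. Within 5 Mb of MIR183, the table listed 8 arms, of which 6 were tested and 4 were not called. miR-29a-3p, from a family known to repress collagen genes, fell by 0.52 on the log2 scale (SE 0.12, adjusted p = 0.0113, edgeR). miR-29a-5p, the other strand of its hairpin, was at 0.11 (adjusted p = 0.603, edgeR). The strand miR-29b-1-5p fell by 1.93 (SE 0.20, adjusted p = 0.000334, edgeR). miR-335-3p was at 0.25 (adjusted p = 0.0782, edgeR) and miR-335-5p at -0.50 (adjusted p = 0.160, edgeR). miR-29b-3p was at -0.06 (adjusted p = 0.733, edgeR). It is encoded at 2 loci, so its counts cannot be assigned to this region alone. The median over the 6, with miR-29b-3p included, was -0.28. Under total counts 5 of the 6, all but miR-29a-5p (-0.47, adjusted p = 0.0529, edgeR), were called lower, against 42.1% of all tested miRNAs. The difference from the cluster was not itself tested.

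The miRNA with the seed of miR-96-5p, miR-1271-5p, had 28, 31 and 27 counts in controls and 6, 16 and 13 in RARαS77A libraries. Its libraries were lower in RARαS77A cells by count and by TPM without overlap, as were 48.8% of the tested miRNAs by TPM. Its log2 fold change of -0.67 did not pass the limit under TMM (SE 0.34, adjusted p = 0.152, edgeR). Under total counts it was -1.24 (adjusted p = 0.0188, edgeR), a scaling with which 42.1% of the tested miRNAs were called lower. At these counts its reads were under 1% of those of miR-96-5p in each library.

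A list of 8 other miRNAs known to repress FOXO1 or BRCA1, miR-1271-5p among them, held 7 that were tested. Of these, 3 were called higher and 4 were not called under TMM, where 23.3% of all tested miRNAs were called higher. miR-139-5p, which targets FOXO1, rose by 1.27 on the log2 scale (SE 0.11, adjusted p = 0.000237, edgeR). miR-146b-5p, which targets BRCA1, rose by 1.15 (SE 0.14, adjusted p = 0.000712), and miR-9-5p by 1.02 (SE 0.16, adjusted p = 0.00171). The more abundant miR-146a-5p stood at -0.28 (adjusted p = 0.173, edgeR), while miR-27a-3p was at 0.20 (adjusted p = 0.197) and miR-27b-3p at 0.09 (adjusted p = 0.498), each with more counts than any member in every library. Under total counts 2 of the 7 were called higher, miR-139-5p (0.69) and miR-146b-5p (0.57), against 10.1% of all tested miRNAs. Called lower were 3, miR-146a-5p (-0.85), miR-27b-3p (-0.49) and miR-1271-5p (-1.24), against 42.1% of all tested miRNAs. miR-9-5p (0.43, adjusted p = 0.0704, edgeR) lost its call. miR-223-3p had 2, 13 and 0 counts in controls and 0 in each RARαS77A library and was not tested. The mRNAs of FOXO1 and BRCA1 were not measured in these libraries.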

How the data were processed

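Small RNA of MDA-MB-231 cells was sequenced by the authors with the NEBNext kit on an Illumina HiSeq instrument, 3 control and 3 RARαS77A libraries. The authors deposited the read count of each miRNA per library, not normalized, and a TPM that equals the count scaled to a common library total (largest difference 4.74e-05). The submitters' processing notes name Bowtie. Not given in the sources used here were its settings, the reference build, the use of strand and the handling of reads that match several loci. Groups were taken from the sample titles.

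Counts were tested in edgeR 4.0.16 (R 4.3.3) with TMM factors, filterByExpr (minimum count 10), estimateDisp, glmQLFit and glmQLFTest on the whole table, with Benjamini-Hochberg adjustment over all 506 tested miRNAs. SE is the size of a log2 fold change over the square root of its F statistic. The edgeR fit was also run on simulated counts with a single dispersion for all miRNAs. That run used TMM only, so it does not bear on the choice of scaling. DESeq2 1.42.0 and limma 3.58.1 (voom, and log2 of the deposited TPM plus 1 or 10) served as alternatives, beside other scalings, filters, a replicate block, a term separating control replicates 1 and 2 and each library left out. Ratios had 0.5 added to each count for the log2 scale. They and single values were compared by exact permutation tests, two-sided. Loci are from GENCODE 29 (GRCh38) and sequences from RefSeq.

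The named miRNAs were the members, the other arms of their precursors, miRNAs sharing a seed with a member, the list for FOXO1 and BRCA1, arms within 5 Mb, and the 5 most alike miRNAs. Members and lists were chosen with earlier results of these data known. The lists for muscle, liver, endocrine and blood cells were used only to check the libraries: liver (8.73 to 53.6 TPM, lowest in control replicate 2) and blood (23.5 to 43.3 TPM), while the endocrine sum (4949 to 8971 TPM) was almost wholly miR-7-5p.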

Additional observations from a re-analysis of the deposited data

How the results depend on the processing

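The calls of miR-183-5p, miR-96-5p and miR-182-5p held under upper quartile and RLE scaling, DESeq2, limma-voom, a mean count of at least 50, the omission of the marker miRNAs and each library left out. All 3 were lost with plain total counts. With total counts in edgeR, limma on TPM plus 1 and limma on TPM plus 10, the log2 fold changes were 0.0028, -0.0012 and -0.0011 for miR-183-5p, 0.081, 0.079 and 0.077 for miR-96-5p, -0.202, -0.202 and -0.199 for miR-182-5p, and -0.50, -0.22 and -0.061 for miR-183-3p, with 0, 0 and 0 members called higher (0 also at an unadjusted p under 0.05 in each). Over all tested miRNAs, 118 higher and 107 lower calls became 51 and 213, 55 and 221, and 59 and 218. These settings have no composition factor. Totals taken over all but the top 5 miRNAs gave 0.14 for miR-182-5p, without a call, and -0.16 for miR-183-3p, with 96 higher and 147 lower calls, whereas upper quartile scaling gave 141 and 74.

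Without a filter on low counts, miR-183-5p was at 0.39 (adjusted p = 0.0507, edgeR), miR-182-5p at 0.18 and miR-183-3p at -0.083, 1 member was called higher, and 162 of 1582 miRNAs were lower. The cause was not tested. The term separating control replicates 1 and 2 from the other libraries gave 0.49 for miR-183-5p and 0.28 for miR-182-5p, 1 member called higher, and 76 higher and 55 lower calls in all, on 1 control library. An adjusted p under 0.01, which is stricter by construction, left 2 members called higher, without miR-182-5p. It left 82 higher and 62 lower calls in all. A mean count of at least 50 left no value for miR-183-3p.

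With each library left out in turn, log2 fold changes were 0.54 to 0.60 for miR-183-5p, 0.54 to 0.73 for miR-96-5p, 0.33 to 0.39 for miR-182-5p and -0.28 to 0.60 for miR-183-3p, with 3 to 3 members called higher. Log2 differences of the ratios were -0.11 to 0.76 for miR-183-5p to miR-183-3p, -0.18 to 0.055 for miR-183-5p to miR-96-5p, -0.82 to 0.061 for miR-183-3p to miR-96-5p and -0.56 to 0.35 for miR-183-3p to miR-182-5p. The sign turned without control replicate 2 in the ratios with miR-183-3p, and without RARαS77A replicate 1 in the ratio of miR-183-5p to miR-96-5p. Adding 1 count turned no ratio.

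As for pairing, each group has replicates 1 to 3. Libraries of equal number, centred on their group, correlated at 0.0390, 0.0992 and 0.0209. Those of unequal number correlated at -0.121 to 0.0633. All of these correlations were weak, and they do not settle whether equal numbers mark pairs. With a replicate block the log2 fold changes were 0.57 for miR-183-5p, 0.65 for miR-96-5p, 0.37 for miR-182-5p and 0.19 for miR-183-3p, these 3 calls were kept, and 107 miRNAs were higher and 94 lower. Depth limits miR-183-3p, miR-182-3p, miR-96-3p and miR-1271-5p, whose counts per library were 34 or fewer.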
